A study of Mus musculus with 8 samples.

Results

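Histone mRNA was followed in limb bud cells of mouse fetuses that carried a truncated Sox9 allele and of their wild-type counterparts. The set comprised the 6 histone genes named in any of the deposited tables, out of 739 distinct genes in those tables. They encode the linker histones Hist1h1b, Hist1h1c and Hist1h1d and the core histones Hist1h2bg, Hist2h2bb and Hist3h2ba, all forms of H2B. The genes were chosen by the authors' own fold changes and FDR between genotypes, so those differences are given as a description and are not tested again.

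Histones package DNA. Core histones, H2B among them, form the octamer that DNA wraps around, and linker H1 histones bind where DNA enters and leaves it. Most histone genes are transcribed as DNA is replicated, and their mRNAs end in a short stem-loop, bound by the protein SLBP, in place of a poly(A) tail. Some of these genes also yield tailed transcripts, more so in cells that leave the cell cycle. The libraries were made from poly(A)-selected RNA, so most untailed histone mRNA was not captured.

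The study used mutations of SOX9, the transcription factor of cartilage formation, as they occur in campomelic dysplasia. Y440X fetuses were Sox9+/Y440X-IRES-EGFP, with a stop codon in the reporter-tagged allele. WT fetuses were Sox9+/IRES-EGFP, with the same reporter on an otherwise normal allele. All were C57BL/6 at E13.5, and the other Sox9 allele was untagged. GFP-positive cells were those in which the tagged Sox9 allele was active, and GFP-negative cells were the remainder of the dissociated bud. The 8 RNA-seq libraries formed 4 groups of 2, Y440X GFP-positive, WT GFP-positive, Y440X GFP-negative and WT GFP-negative, each with a forelimb and a hindlimb library from pooled buds. The study counted the limbs as replicates, so an SD or an SE below holds limb difference as well as other variation.

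Effective library sizes were large enough that 1 CPM (count per 1000000 reads) stood for 38.6 to 51.1 reads. Sox9 was at 474 and 560 CPM in Y440X GFP-positive forelimb and hindlimb, against 1070 and 925 CPM in WT. Sox9 in GFP-negative cells was 17.8 and 21.9 CPM in Y440X, against 96.4 and 72.1 CPM in WT. The 10 chondrocyte markers, all in the tables, summed to 10610 to 47560 CPM in GFP-positive and 394 to 679 CPM in GFP-negative libraries. Differences between pools of buds and between genotypes cannot be told apart.

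The lengths over which the authors counted show which part of these mRNAs was read. For all 6 genes the deposited length equalled that of the RefSeq gene on GRCm38.p6. Hist1h1b (chromosome 13, 21779832 to 21780625, minus strand), Hist1h1c (23738807 to 23739531), Hist1h1d (23555032 to 23555807) and Hist1h2bg (23571400 to 23571863) lie in the large histone cluster on chromosome 13, the last 3 on the plus strand. Hist2h2bb lies on chromosome 3, 96269700 to 96270192, and Hist3h2ba on chromosome 11, 58948911 to 58949372, both on the plus strand. Their current symbols are H1f5, H1f2, H1f3, H2bc8, H2bc18 and H2bu2, in the same order. In the GENCODE M21 transcripts of 4 genes (GRCm38, plus strand) a stem-loop was found, with 6-base arms that pair and a loop of 4 bases. It is shown in capitals, 5′ to 3′, because the counted length of these genes stops just past it, at chr13:23739512-23739527, chr13:23555787-23555802, chr13:23571843-23571858 and chr11:58949349-58949364.
Hist1h1c: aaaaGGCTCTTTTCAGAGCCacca
Hist1h1d: aaacGGCTCTTTTCAGAGCCaccc
Hist1h2bg: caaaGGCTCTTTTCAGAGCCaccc
Hist3h2ba: caaaGGCTCTTTTCAGAGCCacct
The 16 capital letters were identical in the 4 genes, and the counted length ended 4, 5, 5 and 8 bases after them. The GENCODE transcripts run on past the stem-loop, by 840, 4884, 155 and 169 bases, and reads there were outside the counted length. Such a stem-loop, searched as GGNNNTTNTNAGNNCC with pairing arms, was found in 0.251% of 21901 protein-coding genes. The transcripts of Hist1h1b and Hist2h2bb stop short of the RefSeq end, so their stem-loops were not searched.

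Reads of near-identical genes limit 3 members. Of the 50-base stretches of Hist1h2bg, 68.2% also occur in 1 or more of 14 other genes, Hist1h2bc among them. In Hist2h2bb 53.6% occur in Gm42743, a model that overlaps it on the same strand, and Gm20628 overlaps it on the opposite strand. In Hist3h2ba 30.9% occur in the pseudogene Hist3h2bb-ps. For Hist1h1c and Hist1h1d 19.1% and 22.4% were shared, with each other and with Hist1h1e, and for Hist1h1b 0 were. No label or header says how such reads were assigned, so the Hist1h2bg and Hist2h2bb values are uncertain as to gene. Those of Hist3h2ba are uncertain too, for the smaller share in common with the pseudogene.

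The first question was how histone mRNA differed between Y440X and WT within the sorted fractions. In GFP-positive cells the 3 linker genes and 2 of the 3 H2B genes were lower in Y440X, while Hist3h2ba was higher. The authors listed 5 of the 6 as lower, where 1.4% of the about 16244 genes they tested were listed as lower, and 1 as higher, where 0.468% were. Those lists are what put the genes in the set, so nothing is read from the counts. The same holds where groups are said below not to overlap in GFP-positive cells, which was not counted over the other genes. Per the authors' deposited table the FDR was 0.00555 for Hist3h2ba, 0.0136 for Hist2h2bb, 0.0322 for Hist1h2bg, 0.0388 for Hist1h1b, 0.0416 for Hist1h1d and 0.0427 for Hist1h1c. Histone genes outside the threshold of 0.05 were not analysed here.

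The linker gene Hist1h1c, which encodes H1.2, had the highest CPM, not corrected for length, of the 6 in WT cells. In GFP-positive cells it was at 10.4 and 8.52 CPM in Y440X forelimb and hindlimb, against 40.6 and 20.4 CPM in WT. Both Y440X libraries lay below both WT libraries, and the WT forelimb library stood highest of all. The log2 fold change was -1.69 ± 0.28 (SE, n = 2 each), and -1.11 without that library.

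Hist1h1b, which encodes H1.5, was at 0.593 and 0.558 CPM in Y440X GFP-positive cells, against 1.53 and 1.25 CPM in WT. Hist1h1d, which encodes H1.3, was at 0.637 and 0.825 CPM in Y440X, against 1.87 and 1.57 CPM in WT. Neither gene's groups overlapped, on 25 to 37 reads in a Y440X library and 53 to 72 in a WT library. The log2 fold changes were -1.26 ± 0.34 and -1.23 ± 0.33.

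Of the H2B genes, Hist1h2bg was at 0.746 and 1.27 CPM in Y440X GFP-positive cells, against 2.93 and 2.35 CPM in WT. Hist2h2bb had the lowest fold change, with 0.329 and 0.245 CPM in Y440X, against 1.09 and 1.36 CPM in WT. Their log2 fold changes were -1.39 ± 0.32 and -2.08 ± 0.40, and the groups did not overlap. Without the Y440X forelimb or hindlimb library that of Hist1h2bg was -1.05 or -1.82.

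Hist3h2ba was the exception. It was at 12.8 and 12.0 CPM in Y440X GFP-positive cells, against 5.50 and 5.57 CPM in WT. The limbs lay close together in both groups, and the groups were far apart, with a log2 fold change of 1.16 ± 0.25. When libraries were scaled on the listed genes alone, most of them lower in Y440X, the 5 lower genes stayed below 0, at -1.43 to -0.56, and Hist3h2ba was at 1.83.

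**Figure D1:**
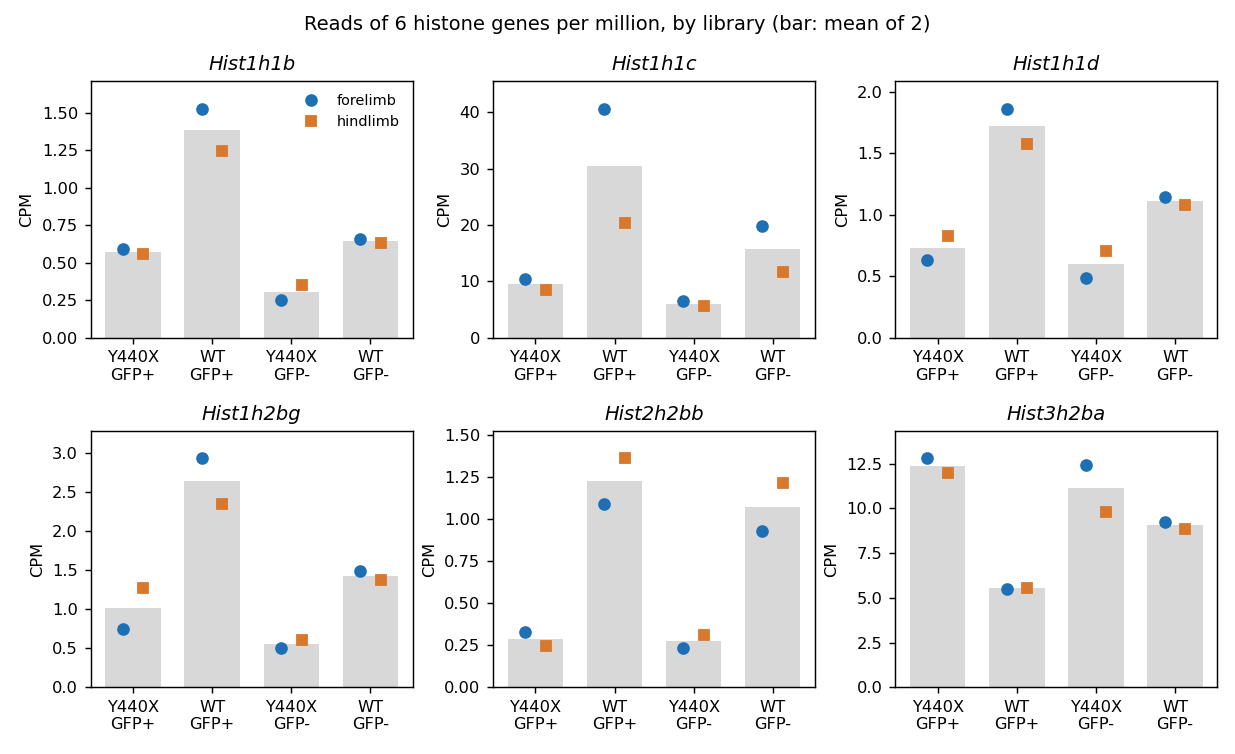
CPM (linear axis from 0) of each histone gene in the 8 libraries; circles are forelimb, squares hindlimb and grey bars the mean of the 2. Hist1h1b, Hist1h1c, Hist1h1d, Hist1h2bg and Hist2h2bb stand lower in Y440X than in WT in both fractions, and Hist3h2ba stands lowest in WT GFP-positive cells, at 5.50 and 5.57 CPM.

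The genes listed for GFP-positive cells only could be tested in the GFP-negative libraries, which did not put them in the set. Those libraries did help define this group, since the authors' test there had not listed its genes. The test is thus not independent of that choice, and the same holds for the background of such genes given below. In GFP-negative cells all 3 linker genes were again lower in Y440X by edgeR's quasi-likelihood test, with libraries scaled to the authors' sizes. Hist3h2ba did not pass. The authors' own test, over many more genes, listed none of these genes for GFP-negative cells. Hist1h1c and Hist1h1b differed more than 2-fold there, so they had missed its FDR threshold of 0.05. The tests also differ in that the spread was estimated here from the 739 listed genes alone. In GFP-positive cells Hist1h1c had p = 4.06e-06 by edgeR here, against 0.00366 in the authors' deposited table. Hist3h2ba went the other way, at 8.99e-05 against 4.1e-05. The p-values here can thus be more lenient than the authors'. Scaled on the listed genes, none of the 3 linker genes passed and Hist1h1d changed sign. Hist1h1c was at 6.49 and 5.56 CPM in Y440X, against 19.8 and 11.7 CPM in WT, and the log2 fold change was -1.39 ± 0.27 (edgeR, adjusted p = 0.00191 over the 739 genes). Hist1h1b was at 0.254 and 0.354 CPM in Y440X, against 0.656 and 0.630 CPM in WT. Its log2 fold change was -1.08 ± 0.34 (edgeR, adjusted p = 0.0157). Hist1h1d was at 0.489 and 0.707 CPM in Y440X, against 1.14 and 1.08 CPM in WT, a log2 fold change of -0.89 ± 0.32 (edgeR, adjusted p = 0.0281). In each of the 3 both Y440X libraries lay below both WT libraries. This separation was not counted over the other genes, so nothing is read from it.

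Hist3h2ba was at 12.4 and 9.82 CPM in Y440X GFP-negative cells, against 9.23 and 8.86 CPM in WT. The groups did not overlap, which was not counted over the other genes either, and the Y440X hindlimb library lay near WT. The log2 fold change was 0.30 ± 0.21 (edgeR, adjusted p = 0.22). It depended on the scaling, at 1.36 and called when libraries were scaled on the listed genes by TMM (edgeR, adjusted p = 0.000408) or by DESeq2 size factors (0.000353). Whether its fold change differed between fractions was not tested, because the GFP-positive difference had chosen the gene.

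These calls were read against the other genes selected in the same way. In this fraction 67.3% of the 739 genes were called lower and 12.7% higher, and of the 229 genes listed for GFP-positive cells only 31.4% were called lower and 3.93% higher. Of the 179 genes listed as lower for GFP-positive cells only, 33.5% were called lower in GFP-negative cells, and 75.4% had a fold change below 0. Of the 50 listed as higher for GFP-positive cells only, Hist3h2ba among them, 14% were called higher, and 56% had a fold change above 0. The median log2 fold change over the 229 genes listed for GFP-positive cells only was -0.29, and over the 4 histone genes among them -0.99. The adjustment over 739 genes was lenient, since it took in the 510 genes listed for this very fraction. Adjusted over the 229 alone, Hist1h1c kept its call (edgeR, adjusted p = 0.0233), Hist1h1b did not (0.0567) and nor did Hist1h1d (0.0803). The last 2 also lost it without the Y440X forelimb library, at adjusted p of 0.104 and 0.184, and Hist1h1d without the WT forelimb library, at 0.0782. Scaled by TMM on the listed genes, which moved the median of all genes by 1.07 on the log2 scale, Hist1h1c and Hist1h1b were at -0.30 and -0.01 and Hist1h1d was at 0.18 (edgeR, adjusted p = 0.319, 0.989 and 0.697). In the DESeq2 Wald test Hist1h1b and Hist1h1d did not pass, at adjusted p of 0.16 and 0.13.

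The other 2 H2B genes had been listed for both fractions, where 2.62% of tested genes were listed as lower and 0.523% as higher in GFP-negative cells. Hist1h2bg was at 0.508 and 0.603 CPM in Y440X GFP-negative cells, against 1.48 and 1.37 CPM in WT. Hist2h2bb was at 0.235 and 0.312 CPM in Y440X, against 0.931 and 1.21 CPM in WT. The authors' deposited table gives FDR of 0.0301 and 0.0119 here.

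Cell type markers among the listed genes differed with genotype in the same libraries. The sums below hold listed genes only, so their direction largely follows from the authors' lists. Markers outside the tables were not analysed. In GFP-positive cells the chondrocyte markers summed to 13960 and 10610 CPM in Y440X, against 47560 and 32000 CPM in WT. In GFP-negative cells 9 of 10 macrophage markers were in the tables and summed to 127 and 104 CPM in Y440X, against 460 and 405 CPM in WT. The endothelial markers, 9 of 11, summed to 99.2 and 99.4 CPM in Y440X, against 247 and 235 CPM in WT. The 5 skeletal muscle markers in the tables, of 10, summed to 51.9 and 42.1 CPM in Y440X GFP-negative cells, against 106 and 108 CPM in WT. No gene of these 4 lists was at 0 in a library. The 6 neutrophil markers in the tables, of 8, were higher, at 15.2 and 20.6 CPM in Y440X GFP-negative cells, against 1.84 and 1.91 CPM in WT, and 5 of them were at 0 in at least 1 library. The 2 erythroid markers in the tables, of 10, summed to 42.5 and 44.4 CPM in Y440X GFP-negative cells, against 11.3 and 13.1 CPM in WT, and 1 of them was at 0 in a library. The 6 Schwann and neural crest markers in the tables, of 8, none at 0, summed to 18.6 and 23.5 CPM in Y440X GFP-positive cells, against 67.8 and 78.0 CPM in WT. Their part in the histone differences was not tested, and fewer cells of a type cannot be told apart from less RNA per cell in such bulk samples.

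The second question was whether histone mRNA differed between GFP-positive and GFP-negative cells, averaged over the genotypes. The genes were not chosen by this contrast, but all 6 entered through the lists for GFP-positive cells, and a gene with more reads there is more easily listed. Of the 5 genes that were lower in Y440X, 3 were higher in GFP-positive cells. Hist1h1b had a log2 fold change of 1.01 ± 0.24, Hist1h2bg of 0.87 ± 0.23 and Hist1h1c of 0.80 ± 0.23 (edgeR, adjusted p = 0.00127, 0.00341 and 0.00502; 4 libraries each). Each was higher in GFP-positive cells in 4 of 4 pairs of libraries from the same genotype and limb, as were 29% of the 739 genes. The share of histone genes called higher, 3 of 6, compares with 31.1% of all genes in the tables, and 48.8% were called lower. Among the 303 genes listed for GFP-positive cells 57.4% were called higher and 25.1% lower, and among the 227 listed there as lower in Y440X 74.4% were called higher and 9.25% lower. The 3 of 5 histone genes among those 227 are thus not above their background.

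Hist1h1d, Hist2h2bb and Hist3h2ba did not pass. Hist1h1d was also above in 4 of 4 pairs but at 0.46 ± 0.23 (edgeR, adjusted p = 0.0766). Its value was 0.75 with DESeq2 size factors over the listed genes and 0.31 in limma, both called (adjusted p = 0.00914 and 0.0393). Hist2h2bb was at 0.14 ± 0.26 and above in 3 of 4 pairs (edgeR, adjusted p = 0.633), and Hist3h2ba was at -0.28 ± 0.15 (edgeR, adjusted p = 0.109), and at 0.017 with those size factors.

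Taken by genotype, Hist3h2ba had opposite signs. In Y440X its GFP-positive libraries were above the GFP-negative ones in both limbs, by ratios of 1.03 and 1.22. In WT they were below in both limbs, by ratios of 0.596 and 0.629. The fits by genotype gave log2 fold changes of 0.16 in Y440X and -0.71 in WT, given as a description, since the low WT GFP-positive values also chose the gene. Of the 76 genes listed as higher for GFP-positive cells 17.1% had the same order of libraries, and the difference between genotypes was not tested.

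**Figure D2:**
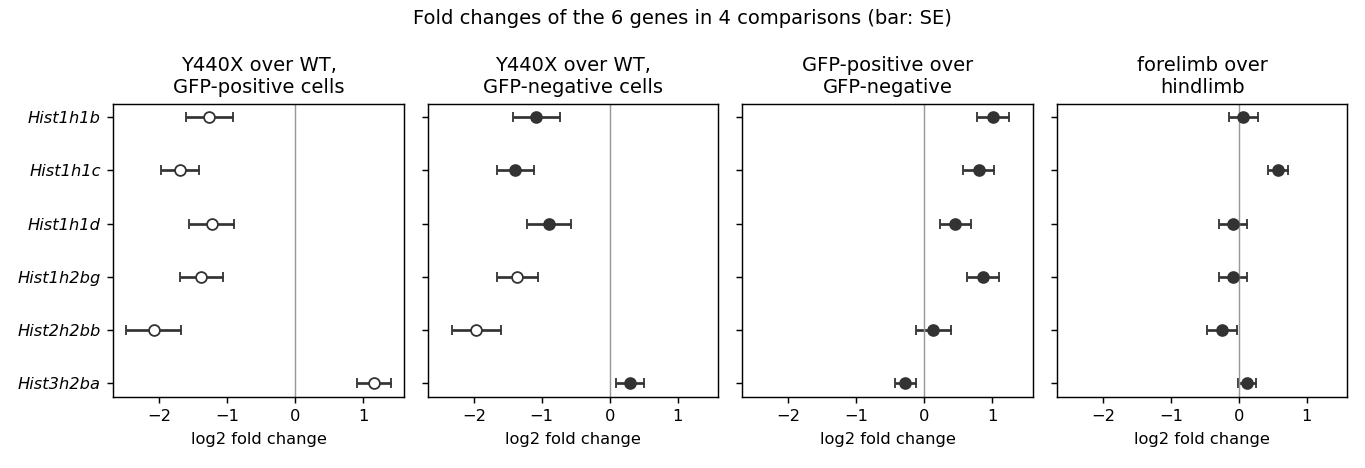
Log2 fold changes (horizontal axis) of the 6 histone genes in 4 comparisons, with bars of 1 SE; open circles mark differences by which the authors' lists chose the gene. Hist3h2ba lies right of 0 for Y440X over WT and left of 0, at -0.28 (0.017 with DESeq2 size factors over the listed genes), for GFP-positive over GFP-negative, and for forelimb over hindlimb Hist1h1c lies farthest from 0, at 0.58, with Hist2h2bb on the other side at -0.25.

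The third question concerned the limbs. Hist1h1c was higher in forelimb than in hindlimb in all 4 groups, by ratios of 1.22 in Y440X GFP-positive, 1.99 in WT GFP-positive, 1.17 in Y440X GFP-negative and 1.69 in WT GFP-negative cells. The ratios of both WT groups lay above those of both Y440X groups. That difference between genotypes was not tested, and how many other genes had this order was not counted. Hist1h1c had a log2 fold change of forelimb over hindlimb of 0.58 ± 0.14 (edgeR, adjusted p = 0.0357; 4 libraries each). It was 1 of 6 histone genes called higher, against 4.06% of the 739 genes called higher and 0.812% called lower, and 19.4% of the genes were higher in forelimb in all 4 groups. The call was lost without any 1 of the WT libraries or of the Y440X GFP-positive libraries, with log2 fold changes of 0.43 to 0.68 and adjusted p of 0.108 to 0.163, and stood without either Y440X GFP-negative library. Leaving out 1 library also takes its partner of the same group out of the limb contrast. Either library of a group thus gave the same value, such as 0.43 for WT GFP-positive and 0.69 for Y440X GFP-negative.

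The other 5 genes did not pass, with log2 fold changes of -0.25 to 0.12 and adjusted p of 0.56 to 0.903 by edgeR. Hist1h1d and Hist1h2bg lay higher in forelimb in both WT groups and lower in both Y440X groups. Hist1h1d had ratios of 0.771 and 0.691 in Y440X GFP-positive and GFP-negative cells, against 1.18 and 1.06 in WT. Hist1h2bg had ratios of 0.587 and 0.843 in Y440X, against 1.25 and 1.08 in WT. Each rests on 25 to 113 reads in a library. The difference between genotypes was not tested, and how many other genes had this order was not counted. The chondrocyte markers were also higher in forelimb in GFP-positive cells of both genotypes, with the sums given above. Their sums in GFP-negative cells were 394 CPM (forelimb) and 473 CPM (hindlimb) for Y440X, and 679 and 629 CPM for WT. Their part in the Hist1h1c difference was not tested.

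**Figure D3:**
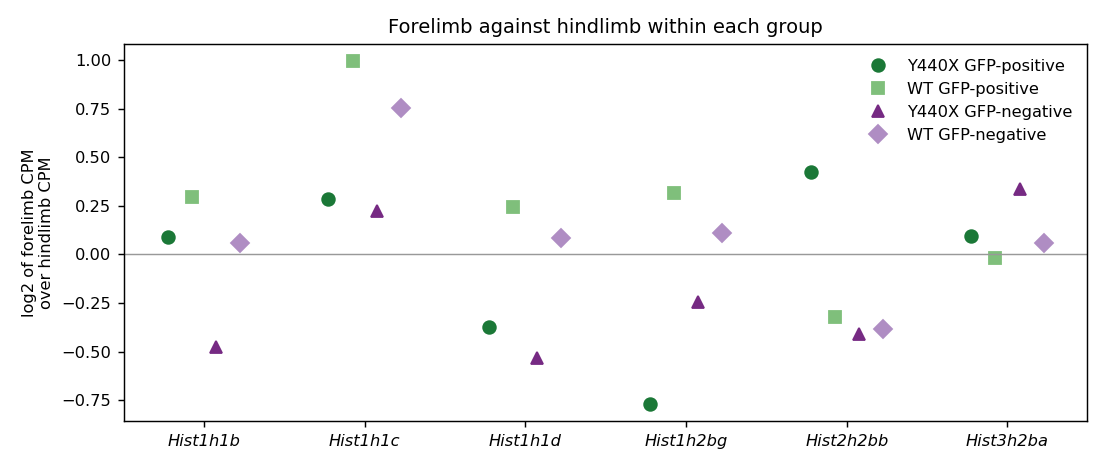
Log2 of forelimb CPM over hindlimb CPM (vertical axis) for each histone gene, 1 point per group of genotype and fraction. The Hist1h1c points all lie above 0, and for Hist1h1d and Hist1h2bg the WT points lie above 0 and the Y440X points below it. The difference between genotypes was not tested.

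Set side by side per length, Hist3h2ba and Hist1h1c exchanged places between genotypes in GFP-positive cells. The authors' lists had chosen these 2 genes there in opposite directions, which favours such an exchange. In Y440X GFP-positive cells Hist3h2ba was at 26.8 ± 1.26 and Hist1h1c at 13.04 ± 1.82 RPKM (CPM per kilobase of counted length; SD, n = 2), and the other 4 genes averaged 0.583 to 2.17 RPKM. In WT GFP-positive cells Hist1h1c was at 42.1 ± 19.7 and Hist3h2ba at 12.0 ± 0.113 RPKM, and the other 4 averaged 1.75 to 5.69 RPKM. In Y440X GFP-negative cells Hist3h2ba was again first, at 24.1 ± 3.94 RPKM with Hist1h1c at 8.31 ± 0.914 RPKM. In WT GFP-negative cells, at 19.6 ± 0.559 RPKM for Hist3h2ba and 21.7 ± 7.87 RPKM for Hist1h1c, these 2 genes differed by less than the spread of Hist1h1c. In the forelimb library of that group Hist3h2ba was below Hist1h1c, at 19.97 against 27.29 RPKM. In the hindlimb library it was above, at 19.18 against 16.16 RPKM. Among the other 4 genes Hist1h2bg was first in all 4 groups. Hist1h1d and Hist2h2bb differed by less than the larger of their SDs in WT GFP-positive cells, at 2.22 ± 0.27 and 2.49 ± 0.39 RPKM.

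The ratio of Hist3h2ba to the summed CPM of the other 5 brings the genes together. It was 1.01 and 1.05 in Y440X GFP-positive forelimb and hindlimb, against 0.114 and 0.207 in WT. In GFP-negative cells it was 1.55 and 1.30 in Y440X, against 0.385 and 0.553 in WT. All 4 Y440X libraries lay above all 4 WT libraries, an order that the choice of genes fixes in GFP-positive cells and in part in GFP-negative cells, where Hist1h2bg and Hist2h2bb were also listed as lower. Without Hist1h1c, which dominates the sum, the ratio was 5.55 and 4.13 in Y440X GFP-positive cells, against 0.741 and 0.853 in WT. In GFP-negative cells it was then 8.34 and 4.97 in Y440X, against 2.19 and 2.06 in WT.

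Among the 3 H2B genes alone, Hist3h2ba made up 92.4% and 88.9% of the summed RPKM in Y440X GFP-positive cells, against 58.3% and 60.6% in WT. In GFP-negative cells it made up 94.5% and 91.7% in Y440X, against 79.7% and 78.0% in WT. Since the other 2 H2B genes were listed as lower in Y440X in both fractions, a higher share there follows from the choice of genes. Hist1h1c held a near-constant share of the 3 linker genes, 85.0% to 92.8% over all 8 libraries, with each forelimb share above the hindlimb share of its group.

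**Figure D4:**
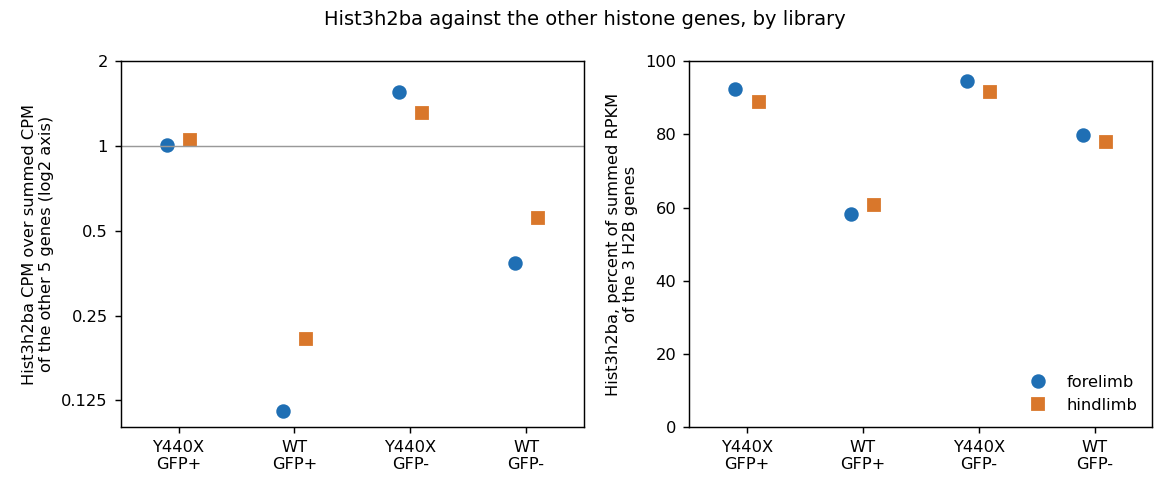
Left, Hist3h2ba CPM over the summed CPM of the other 5 histone genes (log2 axis); right, Hist3h2ba as a percent of the summed RPKM of the 3 H2B genes (linear axis from 0), 1 point per library. WT GFP-positive libraries stand lowest in both, at ratios of 0.114 and 0.207 and at 58.3% and 60.6%.

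The promoters of the H2B genes are shown because these genes share a protein family and moved apart. The 200 bases before the RefSeq start are given (GRCm38.p6, plus strand, 5′ to 3′), at chr13:23571200-23571399, chr3:96269500-96269699 and chr11:58948711-58948910. Capitals mark 3 motifs on either strand. They are the TATA box as TATAAA, the CCAAT box, and ATTTGCAT, the octamer.
Hist1h2bg: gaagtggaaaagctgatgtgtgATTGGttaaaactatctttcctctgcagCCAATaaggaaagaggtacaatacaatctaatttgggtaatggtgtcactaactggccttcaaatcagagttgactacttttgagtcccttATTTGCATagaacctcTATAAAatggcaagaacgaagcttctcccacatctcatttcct
Hist2h2bb: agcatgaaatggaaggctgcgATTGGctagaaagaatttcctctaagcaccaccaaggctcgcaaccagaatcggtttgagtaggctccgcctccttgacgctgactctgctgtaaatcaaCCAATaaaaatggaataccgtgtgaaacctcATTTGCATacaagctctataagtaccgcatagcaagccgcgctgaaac
Hist3h2ba: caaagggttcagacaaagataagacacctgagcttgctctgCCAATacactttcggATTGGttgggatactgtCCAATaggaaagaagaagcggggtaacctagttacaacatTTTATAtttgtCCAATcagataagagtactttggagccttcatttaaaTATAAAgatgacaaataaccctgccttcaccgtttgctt
The octamer, known as a bound element of H2B promoters, stood 59 bases before the start of Hist1h2bg and 48 bases before that of Hist2h2bb. It was not among these letters of Hist3h2ba nor in the same window of the 3 linker genes. Over the full window of the table, 250 bases before to 50 after the start, 1.74% of 32851 promoters hold it. TATAAA occurred in 4 of the 6 histone promoters and in 13.6% of all, and CCAAT in 6 of 6 and in 37.4% of all. Hist3h2ba had 4 CCAAT matches, at 159, 144, 127 and 76 bases before the start. The part of these motifs in the expression differences was not tested.

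Few other genes of histone supply or of the cell cycle were in the tables. Of 83 histone genes in the H1, H2A, H2B, H3 and H4 lists, the tables held the 6 described, with 0 of 25 H2A, 0 of 15 H3 and 0 of 13 H4 genes. They held 0 of 20 genes of histone mRNA processing, histone chaperones and their regulators, 0 of 20 DNA replication genes and 0 of 15 mitosis genes. With 4.55% of the tested genes in the tables, 0 in lists of this size is near the background. Of 10 cell cycle inhibitors 1 was listed, Cdkn2b, the inhibitor p15, with a log2 fold change of 1.33 in GFP-positive cells in the authors' deposited table. Genes outside the tables were not analysed here.

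The genes whose pattern over the 8 libraries was most like each member differed for Hist3h2ba. By Pearson r of log2(CPM + 0.5) among 537 genes with a mean of at least 1 CPM, they were Epcam (r = 0.972), an epithelial adhesion gene, Lrrtm2 (0.941) and Hspb1 (0.918), a small heat shock protein. Epcam was at 18.2 and 15.4 CPM in Y440X GFP-positive forelimb and hindlimb, against 6.38 and 6.51 CPM in WT. Epcam in GFP-negative cells stood at 13.8 and 14.3 CPM in Y440X, against 12.3 and 11.7 CPM in WT. The 8 surface epithelium markers in the tables, of 10, summed to 55.4 and 77.9 CPM in Y440X GFP-positive cells, against 20.9 and 20.8 CPM in WT. The 3 heat shock genes in the tables, of 8, summed to 263 and 283 CPM in Y440X, against 59.6 and 51.8 CPM in WT, and their part in the Hist3h2ba difference was not tested. In GFP-negative cells, where Hist3h2ba differed less, the heat shock sums were 434 and 536 CPM in Y440X, against 102 and 111 CPM in WT. The epithelial sums there were 95.2 and 114 CPM in Y440X, against 42.0 and 42.3 CPM in WT. Both sums hold listed genes only, so their direction largely follows from the authors' lists.

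For Hist1h1c the nearest genes were Tbc1d8b (0.98), Hivep3 (0.968) and Mbnl1 (0.966), a splicing regulator. For Hist1h1b they were Slc35a3 (0.987), a nucleotide sugar transporter, Frmd7 (0.982) and Tmx1 (0.98). Tmx1, a membrane thioredoxin, was also among the 3 nearest to Hist1h1d and Hist1h2bg, at 0.956 and 0.967. It was at 69.1 and 66.9 CPM in Y440X GFP-positive cells, against 164 and 134 CPM in WT. Cxxc5, a zinc finger protein gene, was among the 3 nearest to both genes, at 0.959 and 0.969. The 3 nearest to Hist2h2bb were AA465934 (0.978), Eno1b (0.977) and Mir703 (0.967), each listed by the authors as lower in both fractions. These r rest on 8 libraries in 4 groups that were also used to list the genes, and are a description.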

How the data were processed

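Cells sorted by GFP from E13.5 mouse limb buds were sequenced as stranded poly(A)-selected libraries, per the labels' protocols. featureCounts, edgeR 3.36.0, GRCm38 and mm10 appear in the submitters' processing notes. Aligner and strand setting: not given in the sources used here. Although the file headers label each library's values RPKM, what the authors deposited are counts of reads: 100% were whole, and they matched the deposited CPM whatever the gene length. Per the file headers the tables also hold gene length in bases (other), a log2 fold change, a log2 CPM, an F score, and a p-value with its FDR, at most 0.0495. They list only genes that the authors called and that differed at least 2-fold. There were 0 unused sample columns.

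Effective library sizes came from a least-squares solution on the authors' log2 fold changes and log2 CPM of 165 genes with at least 200 counts in every library. The median residual of the log2 fold changes was 0.00016. CPM and RPKM were computed from these sizes and the deposited lengths. The number of genes the authors tested, 16223 to 16265 (16244 used), follows from the ratio of FDR to p-value at the top rank in each fraction.

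edgeR 4.0.16 in R 4.3.3 was run on all 739 genes with two-sided quasi-likelihood tests (legacy setting), with Benjamini-Hochberg adjustment over the 739 and a threshold of 0.05. Y440X was set against WT within each fraction (2 libraries against 2). The GFP-positive against GFP-negative contrast, averaged over genotypes, used all 8 libraries in 4 groups, and the limb contrast added limb to that fit. SE are Wald errors from the fitted weights. The fits were run on simulated data in which all genes had the same dispersion and none were selected. Such data cannot give the error rates for genes selected as these were. Alternatives were TMM (edgeR) and DESeq2 size factors over the listed genes, DESeq2 1.42.0, limma 3.58.1, a mean count of at least 10, leaving out each library, limb or pair as a block, and subsets of libraries.

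Both fractions were separated from single-cell suspensions of buds, per the labels' protocols. Deviations of libraries of the same genotype and limb from their group means correlated at 0.223 in Y440X and 0.136 in WT over 541 genes, and a fit with these pairs as a block changed no call among the members. P-values rest on the spread between these libraries, estimated from the listed genes alone, which the authors' FDR had selected. The p-values for genotype, fraction and limb can thus be too lenient, those of Hist1h1c included. In fits without limb that spread also holds limb difference, and it may be partly technical. Counts behind each value limit precision, and intervals are not given for single libraries. All 6 members are named, with the 3 genes most alike each. The members and lists were chosen with earlier results of these data known. Sequences are from RefSeq (GRCm38.p6) and GENCODE M21 (GRCm38).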

Additional observations from a re-analysis of the deposited data

Results flagged for a closer look

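The fraction difference of Hist3h2ba ran in opposite directions in the 2 genotypes, GFP-positive above GFP-negative in both Y440X limbs and below it in both WT limbs. The mean log2 ratio in Y440X minus that in WT was 0.875, and this difference was not tested. It equals the GFP-positive genotype difference, which chose the gene, minus the GFP-negative one, so the choice of the gene largely sets it, and the Y440X side alone was at 0.16 (edgeR, adjusted p = 0.58).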

How the results depend on the processing

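Of the fraction results, the 3 members called higher stayed so under all 17 alternatives for Hist1h1b and Hist1h1c, and under 16 for Hist1h2bg, which was at 0.86 with adjusted p = 0.0548 by edgeR on Y440X libraries only. Hist3h2ba was at 0.017 with DESeq2 size factors over the listed genes, which moved the median of all genes to -0.23 from -0.52, and at 0.16 on Y440X libraries only. With limb as a replicate block the fraction value of Hist1h1c was 0.79 and 3 members were again called; over limb the deviations of libraries correlated at 0.066 to 0.478, not above 0.1 in every pair, so limb was not taken as pairing. In GFP-negative cells 3 of 4 members were called. That count was 1 under TMM and under DESeq2 size factors over the listed genes, where Hist3h2ba was the one called (1.36 and 1.36) and Hist1h1d stood at 0.18 and 0.18, and 332 and 335 of all genes were called in place of 591. It was also 1 in the DESeq2 Wald test and when adjusted over the 229 genes not listed for this fraction (chosen after seeing the data), where 45 genes were called, and 1 to 3 on leaving out a library. Adjusted over the genes listed for GFP-positive cells, 138 genes were called. The limb count of 1 was 0 under TMM (edgeR, Hist1h1c adjusted p = 0.0537) and DESeq2 size factors over the listed genes (0.0813), in limma (0.0911) and on GFP-negative libraries only (0.242), and 0 to 1 on leaving out a library. It was 1 in the DESeq2 Wald test (adjusted p = 0.0194). Hist1h1b, not called, was at -0.027 with DESeq2 size factors and -0.14 on GFP-negative libraries only. On leaving out a library the limb values ranged from -0.055 to 0.167 for Hist1h1b, -0.232 to 0.021 for Hist1h1d and -0.272 to 0.116 for Hist1h2bg. All genes called for limb numbered 36, against 4 in limma, 56 on GFP-positive and 0 on GFP-negative libraries, and 0 to 7 without a Y440X GFP-positive or a WT GFP-negative library. Hist2h2bb and Hist1h1b rest on 11 to 59 reads in a library, which limits both.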
